A study of Mus musculus with 14 samples.

Results

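The nuclear genes for the subunits of respiratory complexes III and IV and of ATP synthase were followed in 3T3-L1 cells, a mouse preadipocyte line that turns into fat cells in differentiation medium, with and without knockdown of TP53INP2. Members were all genes whose symbol begins with Uqcr (complex III), with Cox4 to Cox8 (complex IV) or with Atp5 (ATP synthase), leaving out the brown fat isoforms Cox7a1 and Cox8b. A gene was represented by its brightest probe set, by mean level over the 14 arrays, among those annotated to 1 gene symbol. The rule gave 40 of the 18193 genes tested: 8 of complex III, 15 of complex IV and 17 of ATP synthase. Of the 15 complex IV genes, 5 encode isoforms known mainly from particular tissues (Cox4i2, Cox6a2, Cox6b2, Cox7b2 and Cox8c) and were described apart from the other 10. The groups were knockdown cells at day 7 of differentiation (genotype KD TP53INP2, 4 arrays), control cells at day 7 (4 arrays), knockdown cells at day 0 (3 arrays) and control cells at day 0 (3 arrays). Day 0 was the start of differentiation, in cells past confluence. All cells carried a lentivirus, with a scrambled siRNA sequence in controls and a TP53INP2 siRNA sequence in knockdown cells, and all RNA was amplified before labelling. The labels give adipose tissue as the tissue, but the material is a cell line, and they do not say whether replicates came from separate cultures. P-values therefore measure only how far these samples spread, and that spread may be technical. The 2 populations differ in the virus they carry, and what stems from that cannot be told apart from the knockdown itself.

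Complex III takes electrons from ubiquinol and passes them to cytochrome c, complex IV passes them from cytochrome c to oxygen, and both move protons out of the mitochondrial matrix. ATP synthase lets protons flow back through its membrane ring, which turns a central stalk inside a catalytic head that makes ATP. Most subunits are encoded in the nucleus, while cytochrome b, the catalytic core of complex IV and a few subunits of ATP synthase are encoded by mitochondrial DNA. Fat cells are known to gain mitochondria as they differentiate, and TP53INP2 is known as an autophagy protein and as a coactivator of thyroid hormone receptors. A level below is the deposited log2 RMA value of a probe set, and a difference of 1 on this scale is a doubling. Levels of different probe sets were not compared, since each has its own response. Rises and falls are stated only for genes with an adjusted p below 0.05 in a limma fit of the 14 arrays, with Benjamini-Hochberg adjustment across the 18193 genes. Errors of log2 fold changes are the SE of that fit.

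The targeted gene matched the labels. Trp53inp2 lay between 10.01 and 10.45 in knockdown cells, against 11.70 to 11.78 in controls, at day 7 (log2 fold change -1.57 ± 0.13, adjusted p = 0.000111). At day 0 it lay between 11.06 and 11.66 in knockdown cells, against 12.38 to 12.53 in controls (-1.17 ± 0.15, adjusted p = 0.00205). Of 14 measured adipocyte markers, 12 rose between day 0 and day 7 in knockdown cells and 12 in control cells. Of all genes 19% rose in knockdown cells and 10.1% in control cells. The mean level of each marker list of macrophages (6 genes), endothelium (5), muscle (6) and brown fat (6) lay between 3.25 and 5.01 on every array, but single genes read higher. Csf1r, a macrophage receptor, lay between 7.27 and 9.88, the muscle troponin Tnnt2 between 5.81 and 9.37, and Cd68 of macrophages between 5.99 and 7.12. None of these markers passed in either knockdown comparison. Over differentiation Tnnt2 fell by 1.38 in knockdown cells and by 2.42 in control cells, and the endothelial receptor Tek by 1.46 in knockdown cells and by 1.58 in control cells. In knockdown cells Lyz2 (-0.61) and Cox8b (-1.17) also fell and Acta1 rose by 0.95. Their part in the results was not tested. The day 7 arrays numbered replicate 3 stood apart from the others of their groups in both knockdown and control cells. Replicates 1 and 2 of a group lay closer together than other pairs. Results that rest on these arrays are therefore also given without them or with replicates 1 and 2 averaged.

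Promoters of the members were read from RefSeq for GRCm38.p6, as windows from 250 bases before the annotated start to 50 after it, and 30 of the 40 members had a window. They are shown because nuclear respiratory chain genes are known to be controlled by the factors NRF1, GABP, YY1 and ERR. The searched letters, on both strands, were GCGCATGCG for NRF1, CCGGAAGT for GABP and other ETS factors, AAGATGGCG for YY1 and TCAAGGTCA for ERR. The NRF1 letters stood in the windows of 6 of the 30 members (20%), against 1.95% of the 27025 symbols in the table. The ETS letters stood in 4 of 30 (13.3%, against 4.31%), namely Atp5h, Cox8a, Uqcr11 and Uqcrh. The YY1 letters stood in 2 of 30, Atp5j and Atp5j2 (6.67%, against 1.64%), and the ERR letters in 1 of 30, Atp5g3 (3.33%, against 0.466%). Any of the 4 stood in 12 of 30 (40%, against 7.93%). A match is a description of the sequence and not evidence of binding, and no test was made. Of the 4 members that rose with knockdown at day 7, Atp5k, Uqcr11 and Uqcrfs1 have a window. The 250 bases before their starts are printed 5′ to 3′ with matches in capitals, for Uqcr11 as far as the end of a match that runs across the start, and in Uqcrfs1 none of the 4 motifs was found.
Uqcrfs1, chr13:30545317-30545566, minus strand: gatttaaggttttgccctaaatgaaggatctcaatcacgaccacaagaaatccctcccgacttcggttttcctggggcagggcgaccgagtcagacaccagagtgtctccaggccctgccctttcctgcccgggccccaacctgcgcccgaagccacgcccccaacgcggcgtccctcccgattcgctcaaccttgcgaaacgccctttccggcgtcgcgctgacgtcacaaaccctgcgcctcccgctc
Uqcr11, chr10:80406818-80407071, minus strand: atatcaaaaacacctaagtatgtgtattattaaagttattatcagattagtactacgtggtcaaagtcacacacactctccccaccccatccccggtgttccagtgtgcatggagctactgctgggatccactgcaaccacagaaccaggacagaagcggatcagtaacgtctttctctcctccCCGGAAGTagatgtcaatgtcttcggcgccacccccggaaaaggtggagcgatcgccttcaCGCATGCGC
Atp5k, chr5:108434400-108434649, minus strand: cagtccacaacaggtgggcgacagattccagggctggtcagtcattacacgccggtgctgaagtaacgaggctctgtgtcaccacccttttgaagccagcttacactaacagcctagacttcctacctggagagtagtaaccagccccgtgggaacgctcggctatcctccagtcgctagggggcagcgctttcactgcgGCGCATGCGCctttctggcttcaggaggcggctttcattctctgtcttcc
In Uqcr11 the first run of capitals is the ETS match and the second the NRF1 match. The NRF1 letters overlap with their own reverse complement, so the run of capitals in Atp5k holds a match on each strand, counted once. Counting the annotated start as 0, the NRF1 match began at -50 in Atp5k and at -5 in Uqcr11. The other 4 members with it are shown as the match with a few bases on each side.
Uqcrc1, chr9:108936668-108936696, plus strand: actccgctctGCGCATGCGCagcgcggct
Cox6a1, chr5:115349102-115349130, minus strand: caggaacgggGCGCATGCGCgctctcgct
Atp5g2, chr15:102671071-102671099, minus strand: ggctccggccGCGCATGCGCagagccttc
Atp5l, chr9:44920965-44920992, minus strand: aaccaataaCGCATGCGCatttccccca
These matches began at 30 (Uqcrc1), -162 (Cox6a1), -42 (Atp5g2) and -241 (Atp5l). At day 7 the log2 fold changes of the 6 genes with the NRF1 letters, knockdown minus control, were 0.55 in Uqcr11, 0.52 in Uqcrc1, 0.42 in Atp5k, 0.29 in Atp5l, 0.10 in Atp5g2 and -0.08 in Cox6a1. Uqcr11 and Atp5k passed the test. In this comparison 10% of the 40 members and 3.01% of all genes rose. Another probe set of Cox6a1, at a mean level of 11.94, gave 0.34. Members without the letters were not set beside these 6, and a link between the letters and these values was not tested.

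At day 7, 4 of the 40 genes rose in knockdown cells relative to controls and 0 fell. The 4 were Uqcrfs1, Uqcr11 and Uqcrq of complex III and Atp5k of ATP synthase. This was 10% of the members, while 3.01% of all genes rose and 3.57% fell in this comparison. The log2 fold change was above 0 in 33 of 40 members, with a median of 0.17, against 8563 of 18193 genes and a median of -0.02. By complex the medians were 0.37 in complex III (8 of 8 above 0, 3 rose), 0.15 in the 10 genes of complex IV (8 above 0, 0 rose) and 0.14 in ATP synthase (16 of 17 above 0, 1 rose). The 5 tissue-restricted isoforms had a median of -0.19, with 1 above 0. These medians depended on the probe set. With the dimmest probe set above a mean level of 10 in place of the brightest, in the members that had several above it, they were 0.37 in complex III, 0.21 in complex IV and 0.32 in ATP synthase. This replaced the probe set in 3 of 8 genes of complex III, 8 of 10 of complex IV and 7 of 17 of ATP synthase. The unchanged median of complex III thus rests mostly on the same probe sets. The plot of knockdown effects by gene shows the values of the brightest probe sets. In bulk RNA, a smaller share of cells of a type and less RNA per cell cannot be told apart.

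The 4 calls lay close to the threshold and depended on single arrays. With replicates 1 and 2 averaged 0 members passed. Without knockdown replicate 3 at day 7, 16 members passed, all higher, and without both day 7 replicate 3 arrays 12 passed, all higher. No member passed without control replicates 1, 3 or 4 at day 7, knockdown replicates 1 or 2 at day 7, or control replicate 1 at day 0. Uqcrq alone passed without control replicates 2 or 3 or knockdown replicates 1 or 2 at day 0, and Uqcrfs1 alone without control replicate 2 at day 7. Without knockdown replicate 4 at day 7 none of the 4 passed, and 1 other member, Cox6b2, was lower. With a replicate block within each day, 11 members passed, all higher. The share of all genes that passed under each of these settings is not given here. A change in these counts can therefore not be read as particular to the members.

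**Figure D1:**
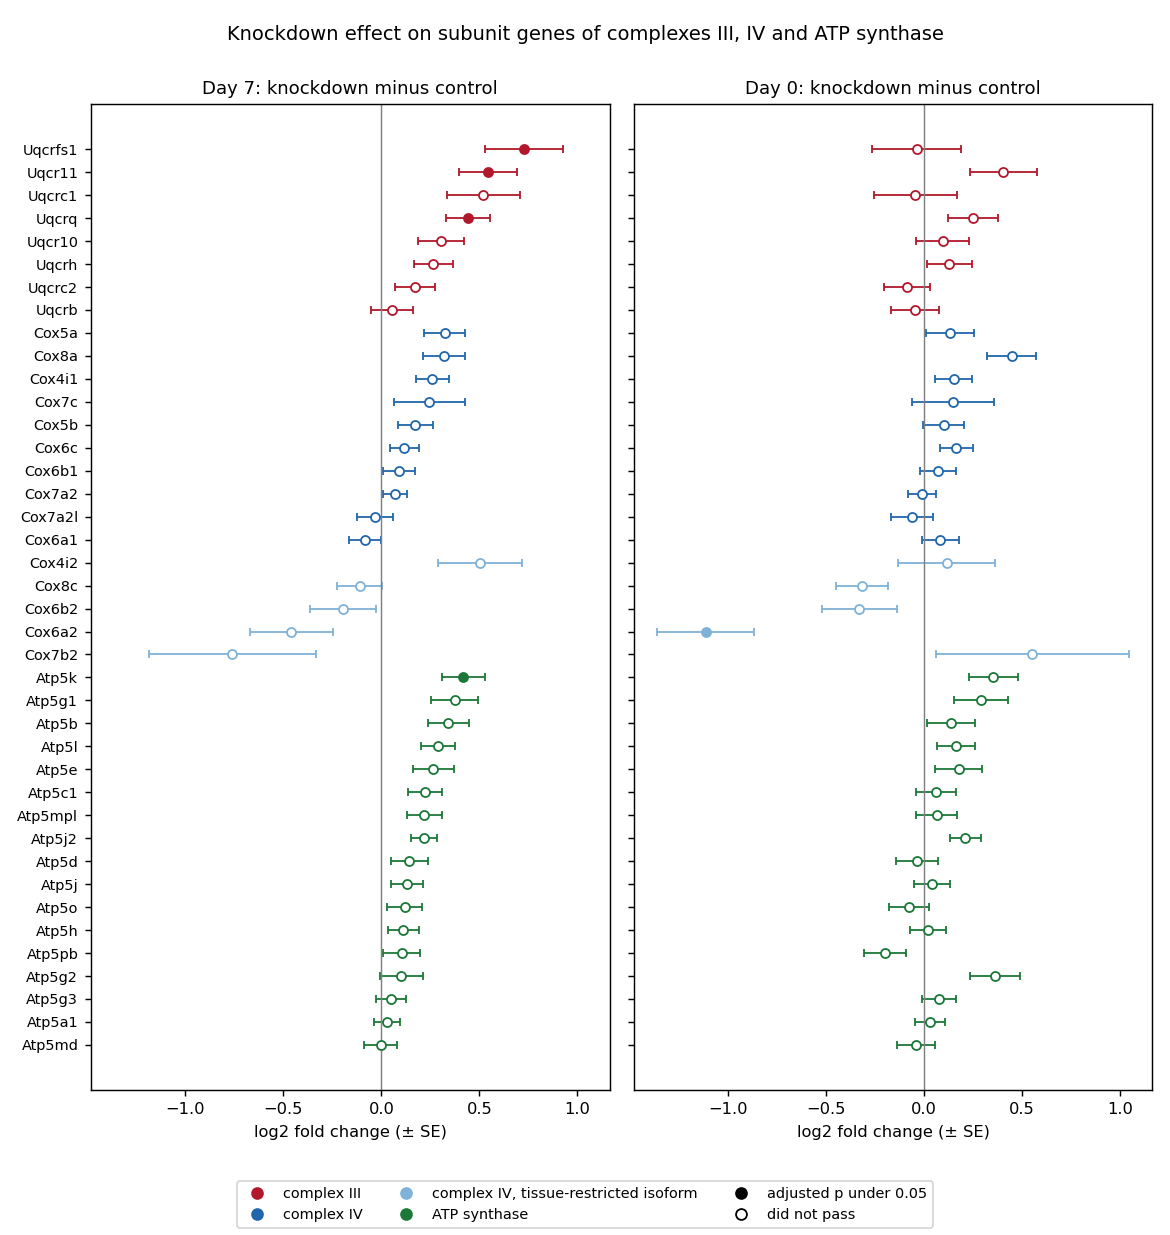
Log2 fold change (x axis, log2 units, point ± SE) of each of the 40 genes (rows, grouped by complex) for knockdown minus control, at day 7 in the left panel and day 0 in the right. Filled points passed an adjusted p under 0.05: Uqcrfs1, Uqcr11, Uqcrq and Atp5k on the right of 0 at day 7, and Cox6a2 on the left of 0 at day 0.

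Uqcrfs1 encodes the Rieske iron-sulphur protein, which carries electrons from ubiquinol to cytochrome c1 within complex III. Its level at day 7 was 11.91, 11.83, 11.19 and 12.04 in knockdown cells, against 11.31, 11.31, 10.65 and 10.80 in control cells. The groups overlapped through knockdown replicate 3, which lay under 2 of the controls, while each knockdown array lay above the control of the same number. The log2 fold change was 0.73 ± 0.20 (95% interval 0.30 to 1.16, adjusted p = 0.0474), a 1.66-fold higher level. The 4 differences by number were 0.60, 0.53, 0.55 and 1.24. With the replicate number as a block, shared by both days, the adjusted p was 0.0537, so this call did not hold in that fit. Whether equal numbers belong together across the days was not examined.

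Uqcr11 and Uqcrq encode small subunits of complex III without a cofactor. Uqcr11 read 11.49, 11.42, 10.89 and 11.63 in knockdown cells at day 7, against 10.90, 10.98, 10.53 and 10.85 in controls. The fold change was 0.55 ± 0.15 on the log2 scale (adjusted p = 0.0470), and only knockdown replicate 3 reached into the range of the controls. Uqcrq was at 12.23, 12.15, 11.80 and 12.32 in knockdown cells, against 11.69, 11.76, 11.50 and 11.79 in controls. Here the lowest knockdown array lay just above the highest control, and the log2 fold change was 0.44 ± 0.11 (adjusted p = 0.0369). Other probe sets of Uqcrq were far dimmer. They gave 0.68 ± 0.31 at a mean level of 5.48, -0.04 ± 0.13 at 3.05 and 0.02 ± 0.15 at 2.76.

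The core proteins Uqcrc1 and Uqcrc2 form the large matrix-facing part of complex III. Uqcrc1 read 9.75, 9.69, 9.20 and 10.12 in knockdown cells at day 7, against 9.43, 9.43, 8.83 and 8.99 in controls (0.52 ± 0.18, adjusted p = 0.108). Each knockdown array was above the control of its number, but replicate 4 gave a difference of 1.13 and the others 0.26 to 0.38, and the test was not passed. Uqcrc2 had a log2 fold change of 0.17 ± 0.10 (adjusted p = 0.346). Among the other small subunits, Uqcr10 stood at 0.30 ± 0.12 (adjusted p = 0.142) and Uqcrh, the hinge protein beside cytochrome c1, at 0.27 ± 0.10 (adjusted p = 0.124). Uqcrb, which lies next to cytochrome b, had the lowest value of the complex by the brightest probe sets, 0.05 ± 0.11. It read 12.73, 12.88, 12.74 and 12.93 in knockdown cells, against 12.90, 12.73, 12.70 and 12.74 in controls, so that its groups lay on top of each other. Its other probe set, at a mean level of 11.77, gave 0.25 ± 0.10, so this place depended on the probe set.

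None of the 10 complex IV genes outside the tissue-restricted isoforms passed at day 7, and the smallest p-values were those of Cox4i1, Cox5a and Cox8a. Cox4i1, the common isoform of the subunit through which ATP is known to regulate the enzyme, read 12.75, 12.72, 12.46 and 12.71 in knockdown cells, against 12.45, 12.48, 12.27 and 12.41 in controls (0.26 ± 0.08, adjusted p = 0.0801). Cox5a, a subunit on the matrix side, read 12.73, 12.70, 12.50 and 12.68 in knockdown cells, against 12.47, 12.48, 12.11 and 12.26 in controls (0.32 ± 0.11, adjusted p = 0.0847). Cox5a was the complex IV gene whose day 7 groups did not overlap. Its other probe sets, at mean levels of 12.15 and 12.14, gave only 0.08 and 0.09. Cox8a, the common isoform of the smallest subunit, read 11.74, 11.79, 11.38 and 11.68 in knockdown cells, against 11.46, 11.43, 11.15 and 11.27 in controls (0.32 ± 0.11, adjusted p = 0.0911). Its replicate 3 in knockdown cells lay within the range of the controls.

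The remaining complex IV genes had smaller values. Cox7c was at 0.25 ± 0.18, the zinc-binding subunit Cox5b at 0.17 ± 0.09, Cox6c at 0.12 ± 0.07, Cox6b1 at 0.09 ± 0.08 and Cox7a2 at 0.07 ± 0.06. Below 0 lay Cox7a2l, which is known to join complexes III and IV in supercomplexes (-0.03 ± 0.09), and Cox6a1 (-0.08 ± 0.08). The intervals of these 2 ran from -0.23 to 0.17 and from -0.26 to 0.09. Cox6a1 read 13.21, 13.15, 13.17 and 13.15 in knockdown cells, against 13.36, 13.25, 13.24 and 13.18 in controls, with differences of -0.14 to -0.02 in the 4 numbered pairs.

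Several subunits of complex IV have paralogues, of which the restricted isoforms are given here. In the Cox4i family Cox4i2, known from lung and as a hypoxia-linked isoform, had a day 7 log2 fold change of 0.50 ± 0.21 (adjusted p = 0.178). It read 5.23, 5.44, 4.47 and 4.98 in knockdown cells, against 4.47, 4.64, 4.78 and 4.22 in controls, with replicate 3 opposite to the others. In the Cox6a family the heart and muscle isoform Cox6a2 read 6.22, 5.91, 6.10 and 6.35 in knockdown cells, against 6.42, 6.27, 6.77 and 6.95 in controls (-0.46 ± 0.21, adjusted p = 0.218). Cox6b2, known from testis, stood at -0.19 ± 0.17 beside 0.09 ± 0.08 for Cox6b1. Cox8c, another testis isoform, stood at -0.11 ± 0.12 beside 0.32 ± 0.11 for Cox8a. Cox7b2 had the lowest value of all members, -0.76 ± 0.43 (adjusted p = 0.317). It read 3.37, 3.92, 3.67 and 3.76 in knockdown cells, against 5.09, 5.02, 4.31 and 3.35 in controls, and the wide spread of the controls covered all knockdown arrays. The mean level of Cox4i2, Cox6b2, Cox7b2 and Cox8c over all arrays lay between 3.88 and 4.69, near the bottom of the scale. The files give no detection call, and RMA compresses changes there, so no presence or absence was read from them.

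In ATP synthase, Atp5k rose with knockdown at day 7. It encodes subunit e, a small membrane subunit known for joining the enzyme into dimers. Its level was 13.09, 13.00, 12.66 and 13.07 in knockdown cells, against 12.63, 12.66, 12.31 and 12.56 in controls (0.42 ± 0.11, adjusted p = 0.0424). The 2 groups met at knockdown replicate 3 without overlapping. Its partner in the dimer contact, Atp5l (subunit g), read 12.63, 12.59, 12.46 and 12.69 in knockdown cells, against 12.36, 12.40, 12.11 and 12.34 in controls (0.29 ± 0.09, adjusted p = 0.0626). All knockdown arrays of Atp5l lay above all controls. Of the other membrane subunits, Atp5j2 (subunit f) stood at 0.22 ± 0.07 (adjusted p = 0.0752), Atp5mpl at 0.22 ± 0.09 and Atp5md, also a subunit tied to dimers, at 0.00 ± 0.08. Atp5md was the lowest of the complex, with 12.89, 12.82, 12.61 and 12.80 in knockdown cells, against 12.82, 12.84, 12.67 and 12.79 in controls, and its interval ran from -0.18 to 0.18.

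The catalytic head of ATP synthase is built of alternating alpha and beta subunits. Atp5b, the catalytic beta subunit, read 12.62, 12.59, 12.34 and 12.74 in knockdown cells, against 12.33, 12.31, 12.03 and 12.24 in controls (0.34 ± 0.10, adjusted p = 0.0685). Its groups did not overlap, and it passed with the replicate number as a block. Atp5a1, the alpha subunit, stood at 0.03 ± 0.07, with an interval from -0.11 to 0.17. Its other probe sets gave 0.02 at a mean level of 12.83 and 0.36 at 12.39, so its distance from Atp5b depended on the probe set. The central stalk genes Atp5c1, Atp5d and Atp5e stood at 0.22 ± 0.09, 0.14 ± 0.09 and 0.26 ± 0.10. The peripheral stalk genes Atp5pb, Atp5h, Atp5j and Atp5o, which hold the head still against the rotor, lay between 0.10 and 0.13. Other probe sets gave 0.45 for Atp5pb (mean level 11.54), 0.38 for Atp5h (11.57) and 0.32 for Atp5o (12.28).

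Atp5g1, Atp5g2 and Atp5g3 encode the same mature ring protein with different import sequences. At day 7 Atp5g1 read 13.01, 12.88, 12.60 and 12.89 in knockdown cells, against 12.62, 12.67, 12.21 and 12.38 in controls (0.37 ± 0.12, adjusted p = 0.0818). Atp5g2 stood at 0.10 ± 0.11 and Atp5g3 at 0.05 ± 0.07. Atp5g1 was higher in each of the 4 numbered pairs, by 0.21 to 0.51, while for Atp5g2 the difference in replicate 4 was -0.16. Differences between these 3 genes were not tested.

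The arrays of the groups did not overlap at day 7 for 6 of the 40 members, all higher in knockdown cells: Uqcrq, Cox5a, Atp5k, Atp5l, Atp5b and Atp5j2. This was 15% of the members, against 6.02% of all genes higher without overlap and 6.96% lower. Of the 4 genes that rose, Uqcrq and Atp5k were among them, as the plot of levels on each array shows.

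**Figure D2:**
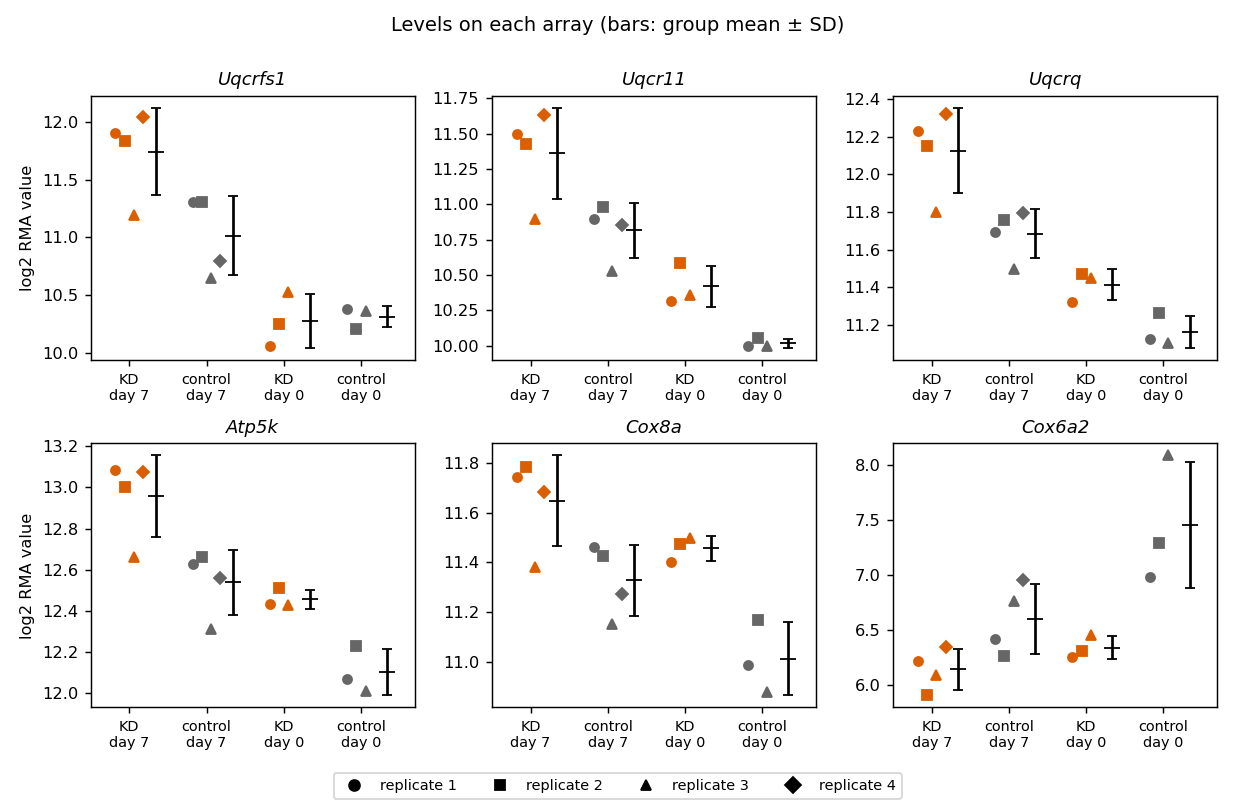
Log2 RMA value (y axis) of 6 genes on each of the 14 arrays, by group (x axis) with a symbol for each replicate number, and bars for the group mean ± SD. Uqcrfs1 in knockdown cells at day 7 spans 11.19 to 12.04, with replicate 3 lowest, and Cox6a2 is highest in day 0 controls, at 6.99 to 8.09.

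At day 0 the cells had not yet been induced. Of the 40 genes, 0 rose and 1 fell, Cox6a2, while 0.467% of all genes rose and 1.34% fell. Cox6a2 read 6.25, 6.31 and 6.46 in knockdown cells, against 6.99, 7.29 and 8.09 in controls. All knockdown arrays lay below all controls, and the controls spread by more than 1 unit. The log2 fold change was -1.11 ± 0.25 (95% interval -1.65 to -0.58, adjusted p = 0.0425), and its other probe set, at a mean level of 3.33, gave -1.41. With replicates 1 and 2 averaged, or with the day 0 arrays fitted alone, 0 members passed. The same held without control replicates 2 or 3 or knockdown replicates 1 or 2 at day 0, and without control replicate 1 or knockdown replicates 1, 2 or 4 at day 7. The muscle markers measured beside it did not pass in this contrast (0 of 6, median -0.01, 3 above 0 and 3 below). All but Tnnt2 had mean levels of 2.75 to 4.49, near the bottom of the scale. Tnnt2, at a mean level of 7.73, stood at -0.53 ± 0.50.

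Over all members at day 0 the median was 0.08 and 27 of 40 were above 0, against a median of -0.05 over all genes. The medians were 0.03 in complex III, 0.12 in the 10 genes of complex IV and 0.06 in ATP synthase. Cox8a had the smallest p among the genes above 0, with 11.40, 11.48 and 11.50 in knockdown cells, against 10.99, 11.17 and 10.88 in controls (0.45 ± 0.12, adjusted p = 0.0965). It passed with a replicate block within each day, which gave 2 members in place of 1. Uqcr11 stood at 0.40 ± 0.17, Atp5g2 at 0.36 ± 0.13 and Atp5k at 0.35 ± 0.13, and none of these passed. Uqcrfs1 read 10.06, 10.25 and 10.52 in knockdown cells, against 10.38, 10.21 and 10.36 in controls (-0.04 ± 0.23), with the groups overlapping.

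Groups did not overlap at day 0 for 10 members higher in knockdown cells (25%) and 3 lower. Over all genes 6.89% were higher without overlap and 15.7% lower. The 10 were Uqcr11, Uqcrq, Cox8a, Cox4i1, Cox5b, Cox6c, Atp5k, Atp5g1, Atp5j2 and Atp5g3, and the 3 were Cox6a2, Cox6b2 and Cox8c. A measure of RNA quality moved with these groups. The beta-actin control probe sets differed, 3′ minus 5′, by 2.74 to 3.23 in knockdown cells and by 3.32 to 3.76 in controls at day 0. For Gapdh this was 1.59 to 1.90 in knockdown cells and 2.02 to 2.43 in controls. When this beta-actin measure entered the fit as a covariate, 4 members passed at day 0 (Cox8a, Uqcr11 and Atp5k higher, Cox6a2 lower) and 15 at day 7, all higher. At day 7 these ranges overlapped, with beta-actin at 2.70 to 3.37 in knockdown cells and 2.82 to 3.48 in controls. The share of all genes that passed with this covariate is not given here, so these counts cannot be read as particular to the members. The part of RNA quality in these results was not tested beyond this fit.

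The knockdown effects at the 2 days were set against each other within the fit. For 0 of the 40 members did the difference between the day 7 and the day 0 effect pass, against 0.022% of all genes (4 of 18193). Uqcrfs1 had a difference of 0.77 ± 0.30 (95% interval 0.11 to 1.42, adjusted p = 0.298), Uqcrc1 one of 0.57 ± 0.28 and Cox6a2 one of 0.66 ± 0.33. For Uqcr11, Uqcrq and Atp5k it was 0.14 ± 0.23, 0.19 ± 0.17 and 0.06 ± 0.17. A rise at day 7 that was not called at day 0 was thus not shown to differ between the days.

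During differentiation more members passed than in the knockdown comparisons, most of them in complex III and ATP synthase. In knockdown cells 18 of the 40 genes rose between day 0 and day 7 and 0 fell. These were 45% of the members, while 19% of all genes rose and 16.8% fell. In control cells 8 rose (20% of the members) and 1 fell, while 10.1% of all genes rose and 12.8% fell. Complex III had 7 of 8 genes higher in knockdown cells with a median of 0.66, and 4 of 8 in control cells with a median of 0.41. ATP synthase had 9 of 17 in knockdown cells (median 0.29) and 4 of 17 in control cells (median 0.15). Complex IV had 2 of 10 in knockdown cells (median 0.18) and 0 of 10 in control cells (median 0.13). The medians over all genes were 0.01 in knockdown cells and -0.01 in control cells. The genes that rose in both cells numbered 7, which is 7 of the 18 in knockdown cells and 7 of the 8 in control cells. With replicates 1 and 2 averaged, 8 members passed in knockdown cells and 1, Atp5g1, in control cells. Leaving out knockdown replicate 1 at day 0 left 11 in knockdown cells. Leaving out control replicates 1 or 3 at day 0, or 1 or 2 at day 7, left 4 in control cells, and leaving out both day 7 replicate 3 arrays gave 15. RNA quality also moved with the days. The Gapdh difference, 3′ minus 5′, was 1.24 to 1.79 at day 7 and 2.02 to 2.43 at day 0 in control cells, without overlap. In knockdown cells it was 1.35 to 1.70 at day 7 and 1.59 to 1.90 at day 0. With the beta-actin covariate 18 members passed in knockdown cells and 14 in control cells (13 higher, 1 lower), and its part was not tested beyond this fit. For these alternative fits the share of all genes that passed is not given here. The test of unequal differentiation in the 2 cells is that of the difference between knockdown effects above, which 0 members passed.

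In complex III, Uqcrfs1 gained 1.46 ± 0.21 in knockdown cells (2.76-fold, adjusted p = 0.000165) and 0.70 ± 0.21 in control cells (1.62-fold, adjusted p = 0.0325). With the replicate number as a block its gain in control cells did not pass. Uqcr11 gained 0.94 ± 0.16 in knockdown cells and 0.80 ± 0.16 in control cells (adjusted p = 0.00326 in control cells). Uqcrq gained 0.71 ± 0.12 in knockdown cells and 0.52 ± 0.12 in control cells. Both core proteins rose in knockdown cells, Uqcrc1 by 1.03 and Uqcrc2 by 0.60. In control cells Uqcrc2 rose by 0.34 ± 0.11, while Uqcrc1 was at 0.47 ± 0.20 and did not pass (adjusted p = 0.117). Uqcrb had the smallest values of the complex, 0.20 ± 0.11 in knockdown cells and 0.10 ± 0.11 in control cells.

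In ATP synthase the ring gene Atp5g1 gained most in both cells, 0.76 ± 0.13 in knockdown cells and 0.68 ± 0.13 in control cells (adjusted p = 0.00258 in control cells). Atp5k rose by 0.50 ± 0.12 in knockdown cells and 0.44 ± 0.12 in control cells, and Atp5l by 0.43 ± 0.09 in knockdown cells and 0.31 ± 0.09 in control cells. Atp5g2 rose by 0.42 ± 0.12 in control cells and was at 0.16 ± 0.12 in knockdown cells, where it did not pass. Atp5e had the smallest knockdown value of the complex, 0.01 ± 0.11. In complex IV, Cox5a (0.40 ± 0.11) and Cox4i1 (0.27 ± 0.09) rose in knockdown cells. The control cells' largest values outside the restricted isoforms were Cox8a at 0.32 ± 0.12, Cox5a at 0.21 ± 0.11 and Cox6b1 at 0.19 ± 0.09, and these did not pass. Cox6a2 fell by 0.85 ± 0.23 in control cells (adjusted p = 0.0179), where it averaged 6.60 ± 0.31 at day 7 and 7.45 ± 0.57 at day 0 (SD, 4 and 3 arrays). In knockdown cells it was at -0.20 ± 0.23.

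**Figure D3:**
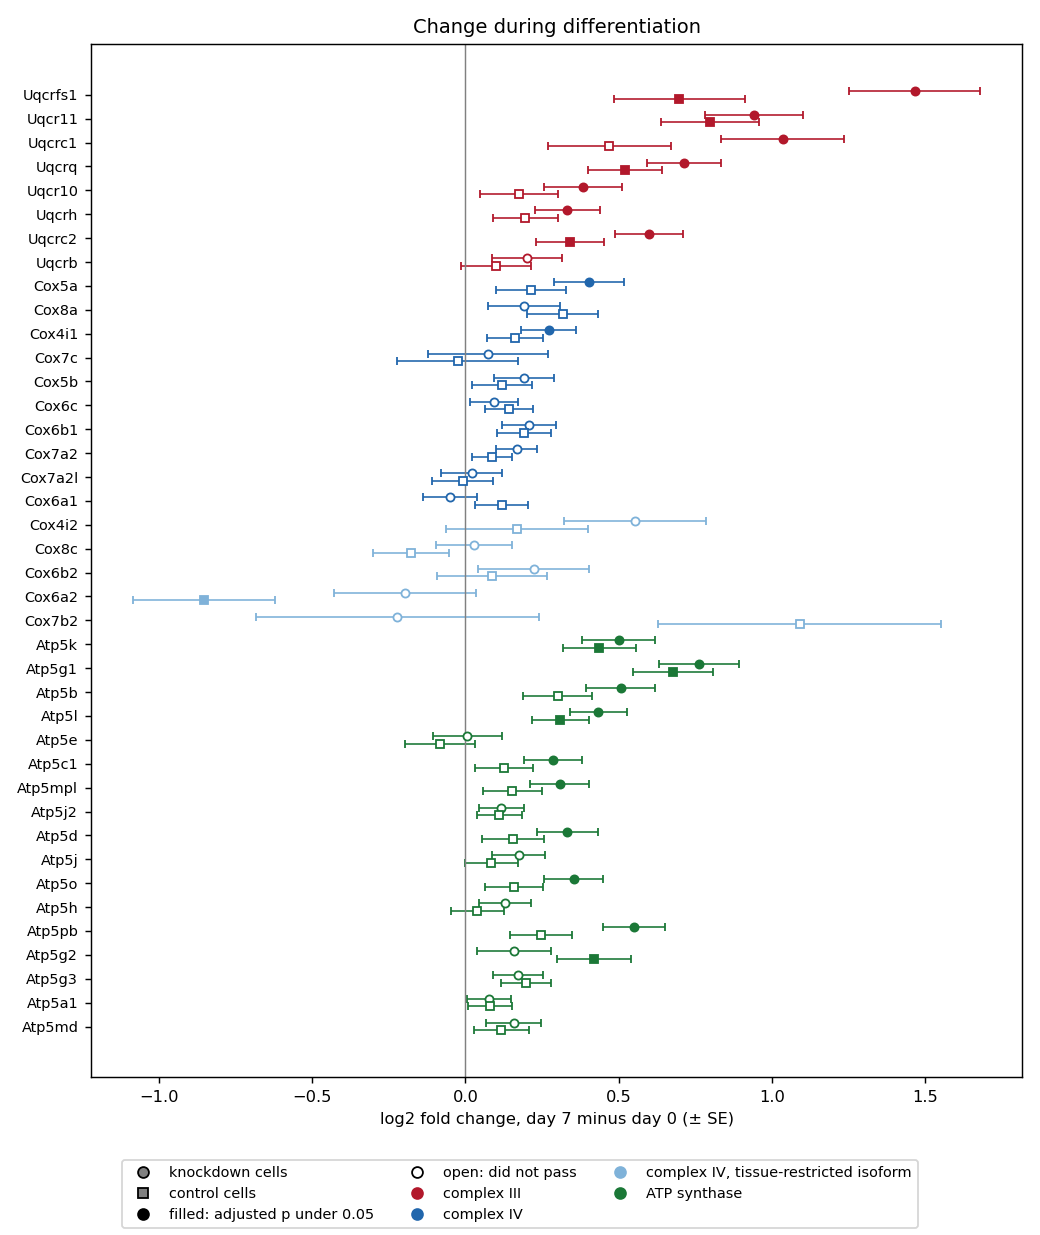
Log2 fold change from day 7 minus day 0 (x axis, log2 units, ± SE) of each gene (rows) in knockdown cells (circles) and control cells (squares), with filled symbols for an adjusted p under 0.05. Among genes that passed, the largest gain is that of Uqcrfs1 in knockdown cells, 1.46, and Cox7b2 lies at 1.09 ± 0.46 in control cells without passing (adjusted p = 0.115).

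The mean level of each complex on each array shows how the arrays themselves differed. Complex III averaged 12.09, 12.07, 11.69 and 12.22 in knockdown cells at day 7, against 11.76, 11.77, 11.41 and 11.61 in controls. The 10 genes of complex IV averaged 12.47, 12.48, 12.27 and 12.48 in knockdown cells, against 12.37, 12.36, 12.12 and 12.26 in controls. ATP synthase averaged 12.81, 12.79, 12.60 and 12.82 in knockdown cells, against 12.63, 12.64, 12.44 and 12.58 in controls. Replicate 3 was lowest in both groups for all 3 complexes, and in knockdown cells it lay within the range of the controls each time. At day 0 complex III averaged 11.25, 11.31 and 11.37 in knockdown cells, against 11.22, 11.28 and 11.18 in controls.

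At day 7 the adipocyte markers, like the complexes, were lowest on the replicate 3 array of each group. Their mean over 14 genes at day 7 was 11.07, 11.02, 10.17 and 11.21 in knockdown cells, against 10.45, 10.50, 9.27 and 9.37 in controls. At day 0 it was 7.82, 7.90 and 6.99 in knockdown cells, against 7.50, 7.27 and 6.80 in controls. The order was not shared there, since replicate 3 of the knockdown cells had the lowest marker mean but the highest mean of its group for complex III (11.37), complex IV (12.31) and ATP synthase (12.50). At day 7, 13 of the 14 markers lay above 0 with a median log2 fold change of 1.04, and Dgat2, which makes triglyceride, rose (2.01 ± 0.41, adjusted p = 0.0162). Of 7 preadipocyte markers 2 fell, the growth factor receptor Pdgfra (-0.49 ± 0.13, adjusted p = 0.0436) and the collagen Col3a1 (-0.35 ± 0.07, adjusted p = 0.0134), and 7 of 7 lay below 0 with a median of -0.49. Their mean lay between 10.32 and 11.09 in knockdown cells at day 7, against 10.91 to 11.20 in controls. Of all genes 3.01% rose and 3.57% fell with knockdown at day 7. The part of the extent of differentiation in the values of the complexes was not tested.

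**Figure D4:**
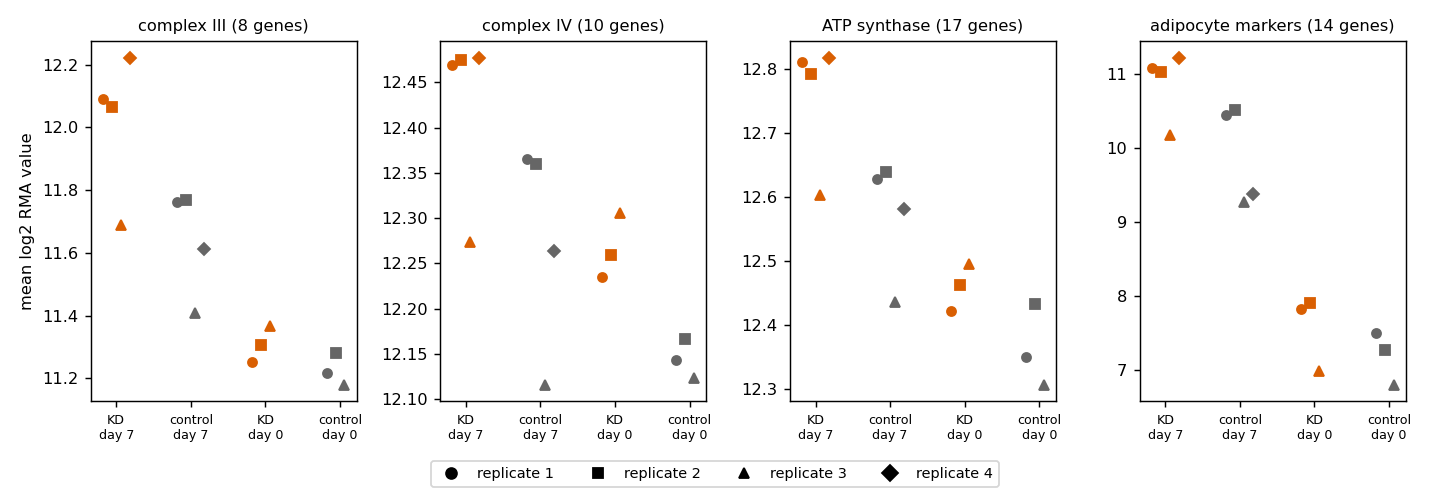
Mean log2 RMA value (y axis, a separate scale in each panel) of complex III, complex IV, ATP synthase and the adipocyte markers on each array, by group (x axis) with a symbol for each replicate number. Replicate 3 is lowest among the day 7 arrays of its group in each panel, for complex III at 11.69 in knockdown cells and 11.41 in controls.

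Other genes of the same pathway were read from lists, beside 3.01% of all genes that rose and 3.57% that fell with knockdown at day 7. Complex II feeds electrons to complex III through ubiquinone, and at day 7 its 4 subunits lay above 0 with a median of 0.25, and 0 of 4 passed. Cyc1, cytochrome c1, is itself a catalytic subunit of complex III that the symbol rule does not take. Cycs is cytochrome c, the carrier of electrons to complex IV, and Cyct its testis form. These 3 genes had a median of 0.25, and 0 passed. Cyc1 stood at 0.42 ± 0.17 and Cycs at 0.25 ± 0.17. Of 6 complex III assembly factors 1 rose, Uqcc3 (0.48 ± 0.12, adjusted p = 0.0333), with a median of 0.26. Of 17 measured assembly factors and copper chaperones of complex IV 2 rose, Surf1 (0.36 ± 0.09, adjusted p = 0.0367) and the insertase Cox18 (0.41 ± 0.09, adjusted p = 0.0270), with a median of 0.19. For ATP synthase 0 of 4 assembly and inhibitor genes passed, and the inhibitor Atpif1 was at -0.04 ± 0.07. Of 14 regulators of mitochondrial genes 0 rose and 1 fell, Gabpa, the DNA-binding part of GABP (-0.38 ± 0.09, adjusted p = 0.0248). Nrf1 was at 0.38 ± 0.17, Esrra at 0.55 ± 0.21 and Ppargc1a at 0.65 ± 0.22, which did not pass. At day 0, 0 genes of these lists passed, while 0.467% of all genes rose and 1.34% fell.

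Over differentiation 2 of the 3 cytochrome c and c1 genes rose in each of the cells. Cyc1 gained 1.01 in knockdown cells and 0.62 in control cells, and Cycs gained 1.09 in knockdown cells and 0.70 in control cells, and all 4 changes passed. Cyct was at -0.36 in knockdown cells and -0.27 in control cells and did not pass. Of the 14 regulators 7 rose (50%) and 1 fell in knockdown cells, and 5 rose (35.7%) and 2 fell in control cells. Over all genes 19% rose and 16.8% fell in knockdown cells, and 10.1% rose and 12.8% fell in control cells. The mitochondrial DNA factor Tfam gained 0.94 in knockdown cells and 0.49 in control cells (both passed), and the coactivator Ppargc1b gained 2.55 in knockdown cells and 1.68 in control cells (both passed). Its relative Ppargc1a fell by 1.23 in knockdown cells and by 1.56 in control cells, both past the threshold.

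The complexes were set beside complex I genes (44, assembly factors included) and mitochondrial ribosomal protein genes (76). At day 7 the complex I genes had a median of 0.23 with 42 of 44 above 0 and 7 that rose (15.9%). The ribosomal genes had a median of 0.39 with 74 of 76 above 0 and 22 that rose (28.9%). Of all genes 3.01% rose in this comparison. In knockdown cells over differentiation the medians were 0.37 for complex I and 0.78 for the ribosomal genes, and in control cells 0.21 for complex I and 0.38 for the ribosomal genes. Differences between these sets were not tested.

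Many members are measured by more than 1 probe set, and the choice of the brightest changed the values. Of the 40 members 26 had several, and of their 40 other probe sets 33 had the same sign at day 7 as the chosen one and 7 the opposite. Among the 24 of these with a mean level above 10, 21 had the same sign. In 18 members at least 2 probe sets lay above 10, and the dimmest of those above 10 gave the higher day 7 log2 fold change in 15 of them. Its median over the 18 was 0.32, against 0.12 for the brightest, and at day 0 it was the higher in 16 of the 18. Cox5a, Cox6c and Uqcrh were the 3 exceptions at day 7, with 0.09 against 0.32 in Cox5a. Still dimmer probe sets of 3 of the 18 are not in this count: Cox5b gave 0.18 at a mean level of 7.85 and -0.01 at 2.38, Cox8a 0.24 at 5.74 and Atp5j2 -0.08 at 5.92. The order of the genes changed with this choice: Cox6a1 stood at 0.34 by its dimmest probe set above 10 and -0.08 by its brightest, Atp5pb at 0.45 and 0.10, Atp5a1 at 0.36 and 0.03, Cox5b at 0.47 and 0.17, and Atp5h at 0.38 and 0.11. Brightness was used only to order the probe sets of a gene, and the cause of this pattern was not tested. Uqcrfs1 and Uqcr11 have only 1 probe set each, so no rule of choice could change their values, and this dependence could not be examined for them. Adjusted over every probe set, the adjusted p was 0.0642 for Uqcrfs1, 0.0664 for Uqcr11, 0.0561 for Uqcrq and 0.0644 for Atp5k, so none of the 4 passed there.

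**Figure D5:**
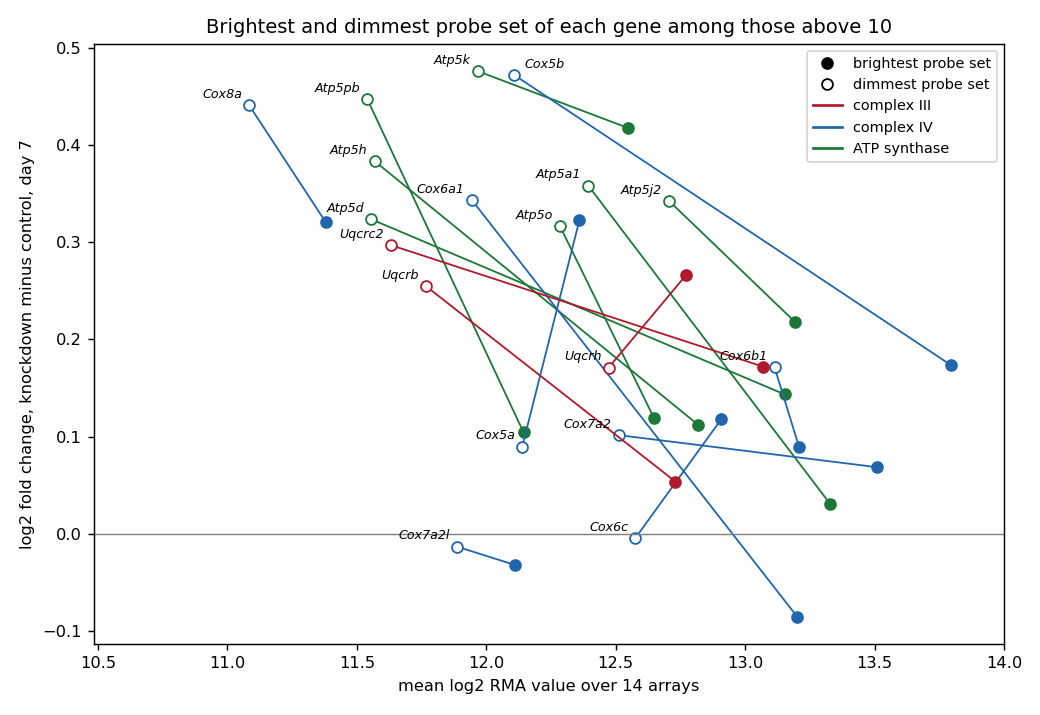
Day 7 log2 fold change, knockdown minus control (y axis), against the mean log2 RMA value over 14 arrays (x axis) for the brightest (filled) probe set and the dimmest above a level of 10 (open) of the 18 genes with at least 2 above 10, joined by a line. The open point is the higher in 15 of the 18 genes, with medians of 0.32 for the open and 0.12 for the filled points.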

How the data were processed

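Expression arrays, 1 per sample, measured total RNA of 14 samples. Per the labels' protocols, RNA was extracted with Trizol and an RNeasy kit, amplified by the Ovation method and biotin-labelled. The authors deposited 1 log2 value for each probe set on each array. RMA and the affy package are named in the submitters' processing notes; the sources used here give no versions. Values lie between 1.13 and 14.37, from which the base of the log was read. Array medians were 5.44 to 5.57. No array gives a detection call, and their number limits the precision.

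Of 45101 probe sets 64 controls were left out, 34945 had 1 gene symbol, 932 had several and 9160 are unnamed here. Symbols came from the platform annotation, and all 40 members were found in the RefSeq table with 0 updates. Limma 3.58.1 in R 4.3.3 was fitted to all arrays with a mean per group (12.6 degrees of freedom), and adjusted p-values run over 18193 genes. Members, lists and motifs were chosen with earlier results of these data known. Genes named with values per array are Uqcrfs1, the called members, those of smallest p and lowest fold change in each complex, and some genes of the paralogue families. Other paralogues are given by their fold change only, and Uqcrc1 was added outside this choice. Named genes of the lists are those that passed, and others were named after their values were seen. Arrays of the same number deviated together: correlations of their deviations from the group means were 0.55, 0.63, 0.76 and 0.20 at day 7 and 0.30, 0.27 and 0.33 at day 0. At day 7, however, replicate 1 correlated at 0.68 and replicate 4 at 0.26 with an array of another number, above their own. From this, and not from the labels, the numbers were taken to pair the arrays in the differences by number and in the blocked fits. The main fit, which gave the calls, did not pair them. The deviations were compared only within a day, whereas the replicate block also joins equal numbers across the days. Alternatives changed the probe set, the genes tested, the scaling, the arrays and the covariates. The fit was tested on simulated data with independent noise for each gene and array. Deviations shared by the genes of an array were not simulated, so that test does not cover them.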

Additional observations from a re-analysis of the deposited data

Results flagged for a closer look

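Within a group of 4 arrays, 8 of 80 sets of values of a member held 1 array far from the other 3, where chance gives about 1 in 20 for a single set. The sets come from the same arrays and are not independent, so the count cannot be judged against this rate. Of these, 5 were in knockdown replicate 3 at day 7, which read 12.78 for Uqcrh, 13.20 for Uqcrc2, 12.46 for Cox4i1, 4.28 for Cox8c and 12.80 for Atp5c1, each below the others of the group. Control replicate 3 at day 7 read 7.37 for Cox7c, below the other controls, and control replicate 4 read 12.23 for Cox7a2l, above them. Knockdown replicate 4 at day 7 read 5.02 for Cox6b2, above the other knockdown arrays at 4.08 to 4.19.

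For Atp5d, a central stalk subunit of ATP synthase, the knockdown array lay above the control of the same number in every pair at day 7 and below it in every pair at day 0. The day 0 pairs differed by only -0.05, -0.04 and -0.01. The difference between the effects at the 2 days was 0.18 ± 0.14 (limma adjusted p = 0.639), which did not pass. Another probe set of Atp5d, at a mean level of 11.56, gave 0.32 ± 0.14 at day 7 and 0.10 ± 0.16 at day 0, above 0 at both. How often such a pattern arises by chance among the members was not worked out.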

How the results depend on the processing

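At day 7, 4 members rose. With the replicate block (the number as a term, shared by both days) 4 passed, Atp5b in place of Uqcrfs1. In differentiating cells 19 passed in knockdown cells (Cox4i2 in addition) and 9 in control cells (Cox8a in place of Uqcrfs1). This blocked fit changed no other call of a member. Other settings lowered the count to 0: another probe set (mean over a gene's probe sets, or the one of largest interquartile range) and fewer or shifted arrays (all arrays shifted to 1 median, only the arrays of the groups compared, or replicates 1 and 2 averaged). Without the dimmest 40% of genes 10 passed and with the beta-actin covariate 15. Leaving out single arrays gave 0 to 16. At day 0, against 1 member, only the compared groups gave 0, replicates 1 and 2 averaged gave 0, the covariate gave 4 and leaving out single arrays gave 0 to 2. The difference between days stayed at 0 in all 26 alternatives. Differentiation, with 18 members in knockdown cells, gave 8 with replicates 1 and 2 averaged and 11 to 19 without single arrays. In control cells, with 9, the compared groups alone gave 5, averaging gave 1, the covariate gave 14 and single arrays left out gave 4 to 11. Other alternatives were chosen after seeing the data. A replicate block within each day gave 11 at day 7 and 2 at day 0. Leaving out both day 7 replicate 3 arrays gave 12 at day 7, 4 at day 0 and 15 in control differentiation. Testing every probe set gave 0 at day 7. A further such alternative left out probe sets with names ending in _x_at or _s_at, and its counts are not given here. The chosen probe sets of 12 of the 40 members have such names, those of Uqcrq and Atp5k among them. The share of all genes that passed under each alternative is not given here, so changes in these counts cannot be read as particular to the members. The causes were not tested.

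Among values of named genes 569 kept their side of the threshold, 82 lost it, 32 gained it, 17 without a call moved and 0 reversed. Uqcrfs1 passed at day 7 in 9 of 27 alternatives (log2 fold change 0.61 to 0.91, limma adjusted p from 0.00526 to 0.216), Uqcr11 in 8, Uqcrq in 12 and Atp5k in 7. Cox6a2 passed at day 0 in 17 of 27 (-1.44 to -0.80, adjusted p from 0.00986 to 0.327).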
